A study of Mus musculus with 4 samples.

Results

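Transcripts of 10 transcription factor genes that mark newborn neurons were followed in iMOP cells. This mouse line was immortalized from cochlear otic progenitors, which give rise to sensory cells and neurons of the inner ear. The genes are Nhlh1, Nhlh2, Scrt1, Scrt2, Insm1, Myt1, Myt1l, Ebf1, Ebf2 and Ebf3, and all 10 had a row among the 49997 gene rows of every count file. They were chosen by family, the NHLH, Scratch, INSM, MYT and EBF factors, when their counts and fold changes in these same libraries were already known. Their levels and their differences between the groups are therefore given as a description, without a test of the members themselves. The study compared 2 groups of wild-type iMOP cells with 2 RNA-seq libraries each. The proliferating cells were grown in DMEM/F12 with N21 supplement, carbenicillin and 20 ng/ml bFGF, a growth factor that keeps progenitors dividing. The cells labelled iMOP-derived neurons were grown in Neurobasal medium with N21 supplement, L-glutamine and 1 µM K03861, which blocks the kinase CDK2 that drives cells through division. The groups differ in medium, growth factor and inhibitor at once, and all libraries come from 1 cell line, so what each of these contributes cannot be told apart. The labels do not say that the libraries of a group came from separate cultures, so the spread between them may be technical.

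Neurons arise when proneural basic helix-loop-helix (bHLH) factors push a progenitor out of the cell cycle. A second layer of factors then comes on in the newborn cell, often for a short time. NHLH and EBF proteins activate neuronal genes in this layer, while Scratch, INSM1 and MYT proteins are mainly repressors that silence progenitor or non-neuronal genes. In the developing inner ear, such factors are known from the neuroblasts that leave the otic epithelium to form the cochlear and vestibular ganglia.

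RefSeq promoter windows (build GRCm38.p6, the same assembly as mm10) were at hand for 6 of the 10 genes, with 13 transcription starts in all. Those of Scrt1, Scrt2, Insm1 and Ebf2 were not analysed here. The windows below lie upstream of the first listed start, are trimmed to bases outside annotated exons, and are written 5′ to 3′ on the gene's strand. They are shown because Nhlh1 had the largest fitted difference of the set and Nhlh2 is its closest relative, and because Ebf3 and Myt1 were among the members with the highest levels. Capitals mark matches, on either strand, to cores associated with the factors themselves: CAGCTG (NHLH), CAGGTG (Scratch), CCCNNGGG (EBF) and AAGTT (MYT). These 4 motifs do not contain one another.
Nhlh1, chr1:172057597-172057846, minus strand: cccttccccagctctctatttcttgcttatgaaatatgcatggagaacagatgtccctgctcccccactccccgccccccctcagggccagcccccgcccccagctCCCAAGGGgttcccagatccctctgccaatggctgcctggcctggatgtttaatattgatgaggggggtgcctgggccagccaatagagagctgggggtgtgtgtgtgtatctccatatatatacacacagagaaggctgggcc
Nhlh2, chr3:102009895-102010075, plus strand: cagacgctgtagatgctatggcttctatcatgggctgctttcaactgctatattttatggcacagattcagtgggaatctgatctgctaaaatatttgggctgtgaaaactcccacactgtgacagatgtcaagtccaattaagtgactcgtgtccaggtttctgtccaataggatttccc
Myt1, chr2:181763082-181763331, plus strand: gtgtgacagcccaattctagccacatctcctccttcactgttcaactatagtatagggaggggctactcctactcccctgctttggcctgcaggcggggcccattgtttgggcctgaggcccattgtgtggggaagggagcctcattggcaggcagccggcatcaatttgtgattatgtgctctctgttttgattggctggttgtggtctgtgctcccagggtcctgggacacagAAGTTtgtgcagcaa
Ebf3, chr7:137314446-137314695, minus strand: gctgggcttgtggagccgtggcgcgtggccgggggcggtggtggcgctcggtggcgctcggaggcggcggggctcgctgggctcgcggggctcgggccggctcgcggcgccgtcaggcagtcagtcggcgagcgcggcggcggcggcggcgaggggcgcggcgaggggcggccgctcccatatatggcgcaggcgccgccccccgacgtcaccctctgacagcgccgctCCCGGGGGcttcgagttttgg

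The Nhlh1 window held 1 EBF core, beginning 144 bases before the start, and the Ebf3 window held 1, beginning 21 bases before it. The Myt1 window held 1 MYT core, beginning 15 bases before the start, and the 181 bases shown for Nhlh2 held none of the 4 motifs. Among 32851 mouse windows of 250 bases, 11.8% held the EBF core, 35.3% the MYT core, 13.0% the NHLH motif and 17.2% the Scratch motif. The windows differed in base composition, with a GC content of 58.4% and 2 CG pairs for Nhlh1 against 80.0% and 43 CG pairs for Ebf3. A match is a description of the letters and says nothing of binding.

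The libraries were shallow outside ribosomal RNA, which sets what can be seen of these genes. Total counts ranged from 3150354 to 32913243, of which 7 ribosomal RNA and rRNA-like genes took 88.2% to 98.1%. The remaining counts were 292302 in proliferating 1, 614465 in proliferating 2, 3241915 in neuron 1 and 617872 in neuron 2. Levels are given as CPM, the gene's counts scaled to 1000000 of these remaining counts. A count of 0 allows, at 3 counts, up to 10.3, 4.88, 0.925 and 4.86 CPM in the same order. These limits, and the 95% intervals below, cover counting error only, because reads without molecular identifiers are not independent molecules. Libraries with the same number were more alike than libraries of the same group. Pearson's r of log2 CPM, taken over genes that are not independent of each other, was 0.78 between the libraries numbered 1 and 0.82 between those numbered 2, against 0.40 between the proliferating and 0.50 between the neuron libraries. Each comparison is therefore also given within each number.

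The summed levels of division and neuron markers ran opposite to the cell identity in the labels. The summed otic progenitor markers, mostly Sox2, ran with the labels. The summed level of 10 genes of dividing cells was 284 and 656 CPM in the proliferating libraries and 2507 and 3810 CPM in the neuron libraries, opposite to the labels. That of 10 neuron markers was 2621 and 2523 CPM against 1704 and 1186 CPM, also opposite as a sum. Map2 gave the largest part (1119 and 1284 against 563 and 795 CPM). Map2, Stmn2 and Elavl3 were lower in both neuron libraries than in both proliferating ones. The groups overlapped for all other neuron markers, among them Dcx (174 and 233 against 286 and 165 CPM). Rbfox3 was highest in neuron 1 (13.7 and 3.25 against 54.3 and 4.86 CPM). All 10 division markers were detected in every library, and 8 to 10 of the neuron markers. The summed level of 10 otic progenitor markers was 489 and 605 CPM in the proliferating and 311 and 256 CPM in the neuron libraries, with 4 to 8 detected, and most of it came from Sox2 (359 and 407 against 143 and 157 CPM). Jag1 (92.4 and 168 against 109 and 84.2 CPM) and Eya1 (27.4 and 27.7 against 53.1 and 11.3 CPM) overlapped between the groups. Pax8 and Isl1 were at 0 in all 4 libraries, and Pax2, Gata3 and Fgf10 never exceeded 2 counts. The groups are named by their labels throughout, and what part the division and neuron markers play in the results below was not tested. In bulk RNA, fewer cells that express a gene and less RNA per cell cannot be told apart.

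Taken as a set, the 10 genes were lower in the libraries labelled neuron. They gave 446 counts in proliferating 1 and 968 in proliferating 2, which is 1526 CPM (95% Wilson interval 1391 to 1674) and 1575 CPM (1479 to 1678). In neuron 1 they gave 1327 counts, or 409 CPM (388 to 432), and in neuron 2 they gave 139 counts, or 225 CPM (191 to 266). On this CPM scale the 2 proliferating libraries lay close together and well above both neuron libraries, which differed from each other beyond counting error. Distances within a group depend on the scale. TMM scaling, which adjusts for library composition, used factors of 1.11 and 0.913 in the proliferating and 1.22 and 0.810 in the neuron libraries. Within each number, 9 and 10 of the 10 genes had a lower TMM-scaled level in the neuron library. Only 9 and 6 of the 10 exceeded 3 counts in either library of the pair. The 9 and 10 include Nhlh2, which had at most 1 count in any library. The 95% counting interval of the ratio lay below 1 for 7 genes within number 1 and 6 within number 2. The width of such an interval depends on depth. The share of all fitted genes with a lower level or such an interval was not computed, so nothing is read from these counts of members. The median ratio of all fitted genes was 1.02 within number 1 and 0.948 within number 2.

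**Figure D1:**
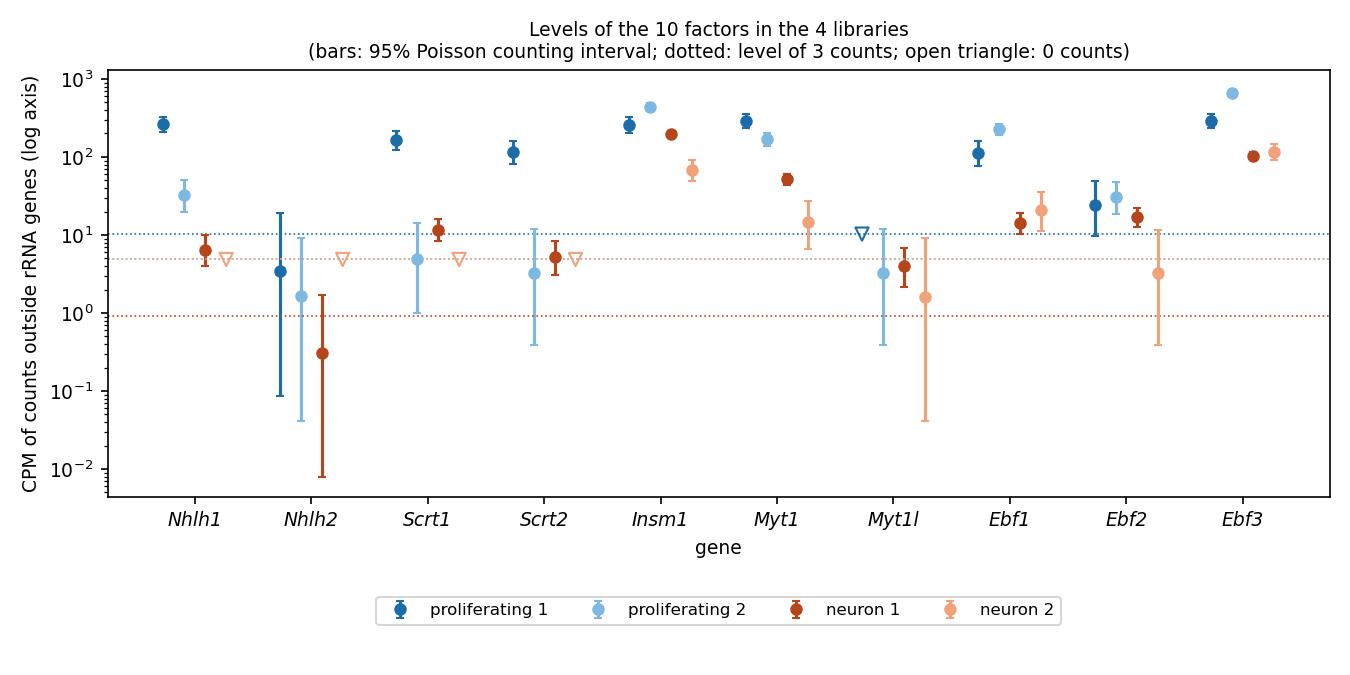
Levels of the 10 genes in each of the 4 libraries, in CPM of the counts outside ribosomal RNA genes on a log axis; points are libraries, bars are 95% exact Poisson intervals, dotted lines mark 3 counts in each library and open triangles, drawn at that level, mark a count of 0. Nhlh1, Insm1, Myt1, Ebf1, Ebf2 and Ebf3 have both neuron points below both proliferating points, while Nhlh2 and Myt1l stay near or under the dotted lines.

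Of the 10 genes, 6 had enough counts for the fit across all genes, which kept genes with at least 16.2 CPM in 2 libraries. Nhlh1 passed through the proliferating libraries alone, Myt1, Ebf1 and Ebf2 through both of these and 1 neuron library, and Insm1 and Ebf3 through all 4. Fitted by group only, the quasi-likelihood test of edgeR called 0 of 6 members at an adjusted p of 0.05, against a background of 0% of 9009 genes, and 97 genes had an unadjusted p below 0.05. DESeq2 also called 0 genes, with 190 below that unadjusted p, while limma called 0 both on log2(RPKM + 0.1), with 108, and on log2(RPKM + 1), with 93. None of the differences described next passed these tests after adjustment over all genes. Both neuron libraries lay below both proliferating libraries for 6 of the 6 fitted members after TMM scaling, which adjusts for library composition, and 8.5% of all fitted genes did so. On the deposited RPKM values, which are scaled to totals that include ribosomal RNA, 2 of the 6, Ebf1 and Ebf3, did so, against 0.244% of genes. Since this contrast was known when the genes were chosen, nothing is read from these shares.

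Nhlh1 had the largest difference of the 10. It encodes a bHLH protein that appears in neurons just after they leave the cell cycle (chromosome 1, 172052292 to 172057573, minus strand, in mm10). It had 77 counts in proliferating 1 (263 CPM, 95% Poisson interval 208 to 329) and 20 in proliferating 2 (32.5 CPM, 19.9 to 50.3). It had 21 counts in neuron 1 (6.48 CPM, 4.01 to 9.90) and 0 in neuron 2, which allows up to 4.86 CPM. Proliferating 1 stood far above the other 3 libraries, and the groups did not overlap on the CPM scale. On the deposited RPKM scale the groups overlapped, with 9.83 and 0.244 in the proliferating and 0.308 and 0 in the neuron libraries. The TMM-scaled level was 44.8-fold lower in neuron 1 than in proliferating 1 (95% Clopper-Pearson interval 27.4 to 76.5). In neuron 2 it was at least 5.90-fold lower than in proliferating 2 when the neuron library is set at 3 counts and the 20 proliferating counts are taken as exact. The 95% Clopper-Pearson limit, which includes the counting error of both libraries, was 4.37-fold. On the log2 scale the fitted difference, neuron minus proliferating, was -5.28 (SE 1.46, n = 2 per group), and it was -3.37 without proliferating 1.

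Its closest relative, Nhlh2, a bHLH gene of the developing nervous system and hypothalamus (chromosome 3, 102010076 to 102015492, plus strand), was at the edge of detection. It had 1 count in each of proliferating 1, proliferating 2 and neuron 1 and 0 in neuron 2. All of these are under 3 counts, so no fold is given. Per kilobase of gene length, the level of Nhlh1 in proliferating 1 was 106 CPM per kb, the highest of the 10 genes there, against 1.01 CPM per kb for Nhlh2.

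The Scratch genes Scrt1 (chromosome 15, 76516203 to 76522499, minus strand) and Scrt2 (chromosome 2, 152081529 to 152095802, plus strand) encode zinc finger repressors of the Snail superfamily that are found in neurons. Scrt1 had 48 counts in proliferating 1, 3 in proliferating 2, 38 in neuron 1 and 0 in neuron 2, or 164, 4.88, 11.7 and 0 CPM. Scrt2 had 34, 2, 17 and 0 counts in the same order, or 116, 3.25, 5.24 and 0 CPM. Both genes were high in proliferating 1 alone, and the groups overlapped, because neuron 1 lay above proliferating 2. That order is not resolved at this depth, because the counting intervals of neuron 1 and proliferating 2 overlapped. They were 8.29 to 16.1 and 1.01 to 14.3 CPM for Scrt1, and 3.05 to 8.40 and 0.394 to 11.8 CPM for Scrt2. Within number 1, Scrt1 was 15.4-fold lower in the neuron library (9.88 to 24.3) and Scrt2 24.5-fold lower (13.3 to 46.7). Within number 2, neither library exceeded 3 counts for either gene, so a difference was not detectable at this depth. Their longest annotated transcripts have a GC content of 64.8% and 63.2%, the highest of the 10 genes. The part of GC content in their low counts in the libraries numbered 2 was not tested.

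Insm1, a zinc finger repressor of progenitors that are becoming neurons or endocrine cells (chromosome 2, 146221921 to 146225020, plus strand), was the member with the smallest difference within number 1 among those with an interval below 1. It had 76 and 271 counts in proliferating 1 and 2, or 260.0 CPM (205 to 325) and 441 CPM (390.1 to 497). It had 634 and 42 counts in neuron 1 and 2, or 196 CPM (181 to 211) and 68.0 CPM (49.0 to 91.9). The groups did not overlap on this scale, but proliferating 1 and neuron 1 lay close together. The TMM-scaled level was 1.47-fold lower in the neuron library within number 1 (1.14 to 1.86) and 5.71-fold lower within number 2 (4.11 to 8.10), and these intervals did not overlap. The fitted log2 fold change was -1.54 (SE 1.02) and was -0.91 without proliferating 2. On the deposited RPKM scale the groups overlapped, with 7.98 and 2.72 in the proliferating and 7.64 and 1.66 in the neuron libraries. Of 7 neuroendocrine markers, Calca was at 0 in all libraries and Chga was detected in neuron 1 alone, with 10 counts. The summed level of these 7 genes was 54.7 and 187 CPM in the proliferating and 117 and 144 CPM in the neuron libraries.

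Myt1, a zinc finger factor of neural progenitors and newborn neurons (chromosome 2, 181763332 to 181827797, plus strand), was lower in both neuron libraries. It had 85 counts in proliferating 1 (291 CPM, 232 to 360) and 104 in proliferating 2 (169 CPM, 138 to 205). It had 167 counts in neuron 1 (51.5 CPM, 44.0 to 60.0) and 9 in neuron 2 (14.6 CPM, 6.66 to 27.7). The groups did not overlap on the CPM scale, and the number 1 library was the higher one in each group. The level was 6.22-fold lower within number 1 (4.73 to 8.13) and 10.2-fold lower within number 2 (5.18 to 23.0). The fitted log2 fold change was -2.85 (SE 1.03). On the deposited RPKM scale the groups overlapped, with 2.33 and 0.273 in the proliferating and 0.526 and 0.0930 in the neuron libraries.

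Of the other MYT genes, Myt1l was too low to compare and St18 was higher in the neuron libraries. Myt1l, a repressor of non-neuronal genes that is kept on in mature neurons (chromosome 12, 29528384 to 29923213, plus strand), had 0, 2, 13 and 1 counts in proliferating 1, proliferating 2, neuron 1 and neuron 2. Its level in neuron 1, 4.01 CPM, lies under what 3 counts would give in each of the other 3 libraries, so a difference was not detectable at this depth. St18, the third MYT gene and not a member of the set, had 27.4 and 42.3 CPM (8 and 26 counts) in proliferating 1 and 2 against 115 and 128 CPM (372 and 79 counts) in neuron 1 and 2. It was higher in both neuron libraries than in both proliferating ones, as were 9.41% of fitted genes. Its fitted log2 fold change was 1.81 (SE 1.01), not called, with a positive sign under every scaling run.

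The EBF factors bind DNA as dimers and act in newborn neurons of many regions. Ebf1 (chromosome 11, 44617317 to 45008091, plus strand) is also a B cell and mesenchymal factor. It had 33 and 139 counts in proliferating 1 and 2, or 113 CPM (77.7 to 159) and 226 CPM (190.2 to 267). It had 46 and 13 counts in neuron 1 and 2, or 14.2 CPM (10.4 to 18.9) and 21.0 CPM (11.2 to 36.0). The groups were far apart, and on the CPM scale the neuron libraries were alike within counting error. With TMM scaling the neuron libraries lie further apart. Ebf1 was 8.77-fold lower in the neuron library within number 1 (5.43 to 14.0) and 9.46-fold lower within number 2 (5.35 to 18.2). The fitted log2 fold change was -3.25 (SE 1.09).

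Ebf3 (chromosome 7, 137193673 to 137314445, minus strand) had the most counts of the EBF genes in every library. Its counts were 85, 407, 335 and 72, or 291 CPM (232 to 360) and 662 CPM (600 to 730) in the proliferating and 103 CPM (92.6 to 115) and 117 CPM (91.2 to 147) in the neuron libraries. On the CPM scale the neuron libraries were again alike, and the proliferating libraries differed from each other beyond counting error. TMM scaling, with a factor of 1.22 in neuron 1 and 0.810 in neuron 2, widens the distance between the neuron libraries. The level was 3.10-fold lower within number 1 (2.42 to 3.95) and 5.00-fold lower within number 2 (3.88 to 6.52). The fitted log2 fold change was -2.11 (SE 1.07), and it was -1.19 without proliferating 2.

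Ebf2 (chromosome 14, 67233292 to 67430918, plus strand), which also acts in brown fat precursors, had 7, 19, 55 and 2 counts, or 23.9, 30.9, 17.0 and 3.24 CPM. The lowest proliferating library, at 7 counts, and neuron 1 had overlapping counting intervals (9.63 to 49.3 and 12.8 to 22.1 CPM). The level was 1.56-fold lower within number 1 (0.598 to 3.43), an interval that includes no difference, and 8.41-fold lower within number 2 (2.03 to 74.4), where the neuron library had 2 counts. The fitted log2 fold change of -1.54 (SE 1.42) went to -0.998 without neuron 2 and to -2.77 without neuron 1.

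**Figure D2:**
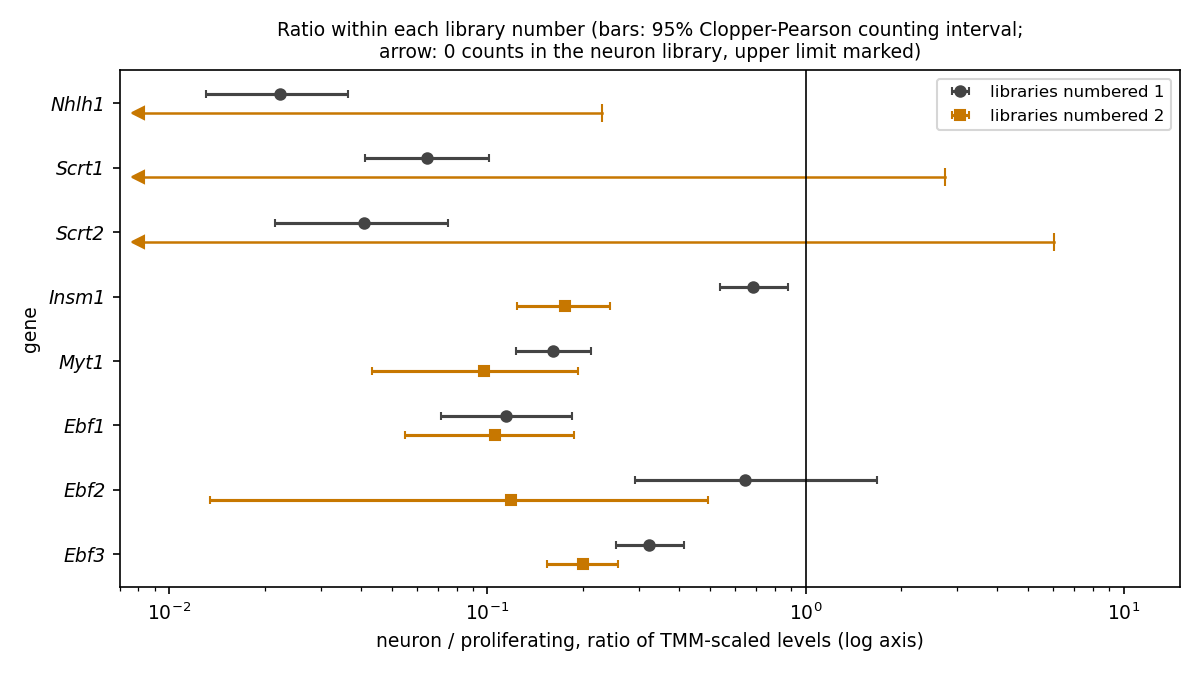
Ratio of the TMM-scaled level in the neuron library to that in the proliferating library of the same number, on a log axis, for the 8 genes above 3 counts in 2 or more libraries; points are ratios, bars are 95% Clopper-Pearson counting intervals, and arrows with an end mark give the upper limit where the neuron library had 0 counts. Ebf1 lies at 0.114 within number 1 and at 0.106 within number 2, while Insm1 lies at 0.682 within number 1 and at 0.175 within number 2.

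The size of these ratios depended on the scale. On the deposited RPKM values (pseudocount 0.01), the log2 ratio within number 2 was -1.46 for Myt1, -1.40 for Ebf1, -0.71 for Insm1 and -0.52 for Ebf3. With TMM scaling (prior count 2) these were -3.25, -3.17, -2.49 and -2.31. Within number 1 the RPKM values were -2.13 for Myt1, -1.14 for Ebf3 and -0.06 for Insm1, against -2.60, -1.62 and -0.55 with TMM. These 7 ratios left their counting intervals on the RPKM scale and kept their sign. The RPKM totals include the ribosomal RNA genes. Those took 90.7% of counts in proliferating 1 and 88.2% in neuron 1, and 98.1% in proliferating 2 and 92.6% in neuron 2. Apart from the added constants, a change of library totals shifts the log2 ratios of all genes in a pair alike.

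Other cell types in which Ebf1 or Ebf2 is active left little trace. Of 6 B cell markers, Cd79b and Ms4a1 were at 0 in every library, and no marker exceeded 2 counts in any. Of 7 mesenchyme and adipocyte markers, 5 were at 0 in every library, among them Col1a2, Pparg and Adipoq, and the summed level was 0 to 4.01 CPM. Oligodendrocyte lineage markers, by contrast, were higher in the proliferating libraries: the summed level of 8 genes was 561 and 412 CPM in the proliferating and 177 and 63.1 CPM in the neuron libraries, with 4 to 6 detected and Sox10 and Mog at 0. That of 7 astrocyte and supporting cell markers was 1201 and 254 CPM against 566 and 646 CPM, with 4 or 5 detected. Of 7 hair cell markers, Pou4f3, Otof and Ocm were at 0 and 1 to 4 were detected, at 12.9 to 31.5 CPM. The part of these markers in the members' differences was not tested.

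Counting could mix some members with genes on the opposite strand, because the strand setting of the counting is not given in the sources used here. Annotated genes overlap Myt1l, Ebf1, Ebf2 and Ebf3 on the opposite strand. Those with a row in the files had 0 to 2 counts per library, except Gm10578, opposite Ebf3, which had 2, 0, 14 and 0 counts against 85, 407, 335 and 72 for Ebf3. No annotated gene overlaps Nhlh1, Nhlh2, Scrt1, Scrt2, Insm1 or Myt1.

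Read against all fitted genes, differences of at least 2-fold toward the proliferating library were more common within number 2. Within number 1, 4 of the 6 fitted members, Nhlh1, Myt1, Ebf1 and Ebf3, were at least 2-fold lower in the neuron library, as were 11.5% of fitted genes. Within number 2, 6 of 6 were, as were 21.4% of fitted genes. In both numbers at once, 4 of 6 were, and 3.92% of genes were. Nhlh1 passed the filter through the proliferating libraries alone, which favours a lower level in the neuron libraries. The members were chosen with this contrast known, so nothing is read from these shares either. The median ratio of all fitted genes was 1.02 within number 1 and 0.948 within number 2.

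The make-up of the set does not depend on the scaling of the libraries. Nhlh1, Scrt1 and Scrt2 together made up 35.7% of the 10 genes' counts in proliferating 1 (95% Wilson interval 31.3 to 40.2), 2.58% in proliferating 2 (1.76 to 3.78) and 5.73% in neuron 1 (4.60 to 7.11). In neuron 2 they gave 0 of 139 counts, which allows a share of up to 2.16% at 3 counts and 2.69% by the Wilson interval. Proliferating 1 thus differed from the other 3 libraries, its own group included. Insm1 and Ebf3 together made up 36.1% in proliferating 1 (31.8 to 40.7) and 70.04% in proliferating 2 (67.1 to 72.8). Their share was 73.0% of the counts of neuron 1 (70.6 to 75.3) and 82.0% of those of neuron 2 (74.8 to 87.5). Ebf1 made up 28.0% of the summed Ebf1 and Ebf3 counts in proliferating 1 (20.7 to 36.7) and 25.5% in proliferating 2 (22.0 to 29.3). It made up 12.1% in neuron 1 (9.17 to 15.7) and 15.3% in neuron 2 (9.16 to 24.4). By this ratio within a library, the 2 neuron libraries lay below both proliferating libraries, though the interval of neuron 2 overlapped those of both.

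Per kilobase, Insm1 had the highest level of the 10 genes in 3 of the 4 libraries, at 146 CPM per kb in proliferating 2, 64.7 in neuron 1 and 22.5 in neuron 2. Ebf3 came next in these libraries, at 107, 16.7 and 18.8 CPM per kb. In neuron 2 their counting intervals overlapped (16.2 to 30.4 for Insm1 and 14.7 to 23.7 for Ebf3). In proliferating 1, Nhlh1 at 106 CPM per kb and Insm1 at 86.0 had overlapping intervals, followed by Ebf3 at 46.9, Scrt1 at 41.0, Scrt2 at 34.3, Myt1 at 25.1, Ebf1 at 15.7 and Ebf2 at 4.19. Between Ebf3, Scrt1 and Scrt2 the intervals also overlapped.

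**Figure D3:**
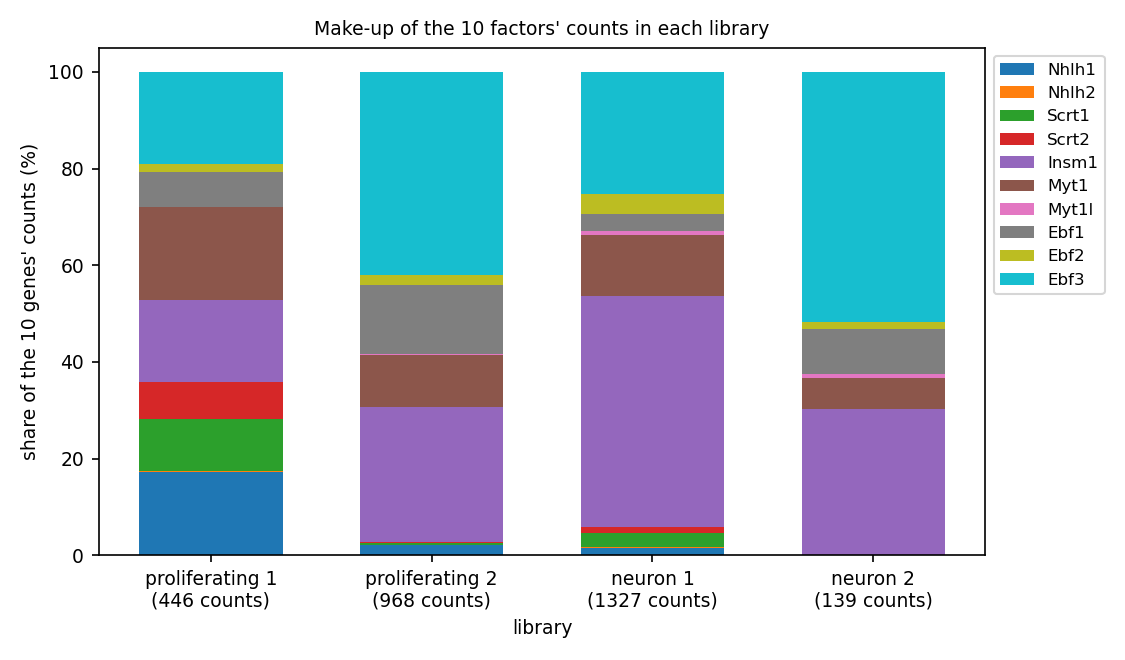
Share of the 10 genes' summed counts taken by each gene, in percent, in the 4 libraries; the number of counts is given under each bar. Nhlh1, Scrt1 and Scrt2 hold 35.7% in proliferating 1 and at most 5.73% in the other libraries, where Insm1 and Ebf3 hold 70.04% to 82.0%.

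The genes around these factors were taken from lists of related roles, and up to 3 with the highest mean level in each are named. In this fit 0 genes of any list were called, and the median log2 fold change of all 9009 fitted genes was -0.03. Among 12 bHLH factors listed as proneural, 9 had a count, 4 were fitted and 3 of these were below 0, with a median of -1.61. Neurod4 had 30.8 and 58.6 CPM in the proliferating and 12.0 and 16.2 CPM in the neuron libraries (log2 fold change -1.66, SE 1.18). Neurod1, a factor of differentiating otic neurons, was not fitted and had 2, 30, 43 and 10 counts, or 6.84, 48.8, 13.3 and 16.2 CPM. Neurog1, the factor that specifies otic neuroblasts, had 0 counts in all 4 libraries.

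Of 11 bHLH partners and Id inhibitors, which bind or block bHLH factors, 9 were below 0, with a median of -0.80. They ran from -3.74 (SE 1.14) for Id3 to 0.84 (SE 1.01) for Id4, both inhibitors of bHLH factors. Id1 and Id2 were at -1.52 (SE 1.54) and -1.43 (SE 1.00). The E proteins Tcf4 and Tcf12 were at 0.59 (SE 1.14) and -0.75 (SE 1.05), and the LIM protein gene Lmo4 was at -1.50 (SE 1.07). Of 12 corepressor genes used by INSM1, Scratch and MYT factors, 8 were below 0 and the median was -0.19. The histone demethylase Kdm1a was at -0.60 (SE 0.94), the deacetylase Hdac2 at -0.25 (SE 1.15) and Gse1 at -1.18 (SE 1.17). All 3 fitted EBF partners of 5 were below 0, with a median of -0.60, and included Zfp423 at -1.28 (SE 1.02), Cnot3 at -0.60 (SE 1.01) and Zfp521 at -0.14 (SE 1.07). Rest, the repressor of neuronal genes outside neurons, had 85.5 and 76.5 CPM in the proliferating and 65.4 and 102 CPM in the neuron libraries, with overlapping groups (0.15, SE 0.98).

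Notch signalling keeps progenitors from becoming neurons, and 8 of its 9 fitted genes of 11 were below 0, with a median of -1.08. Notch1 was at -1.35 (SE 1.46), Notch2 at -0.45 (SE 1.12) and the ligand gene Dll1 at -1.73 (SE 1.15). Among 20 newborn neuron genes, the products that the members accompany, 14 were fitted, 8 of them below 0 and 6 above, with a median of -0.62. Map2 was at -0.74 (SE 1.11), Tubb3 at -1.09 (SE 1.37) and Elavl3 at -1.19 (SE 1.01). Among 9 relatives of the members in the same families, 4 were at 0 in every library and only St18 was fitted. Ebf4 had 9, 0, 33 and 0 counts and Lyl1 had 2, 0, 5 and 0. The signs of 5 list medians depended on the scale. On log2(RPKM + 0.1), where the median of all fitted genes was 0.81, the bHLH partners stood at 0.09, the corepressors at 0.71, the EBF partners at 0.30, the Notch genes at 0.05 and the newborn neuron genes at 0.39. Each of these is below the median of all genes on that scale, and the proneural factors stood at -0.44.

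**Figure D4:**
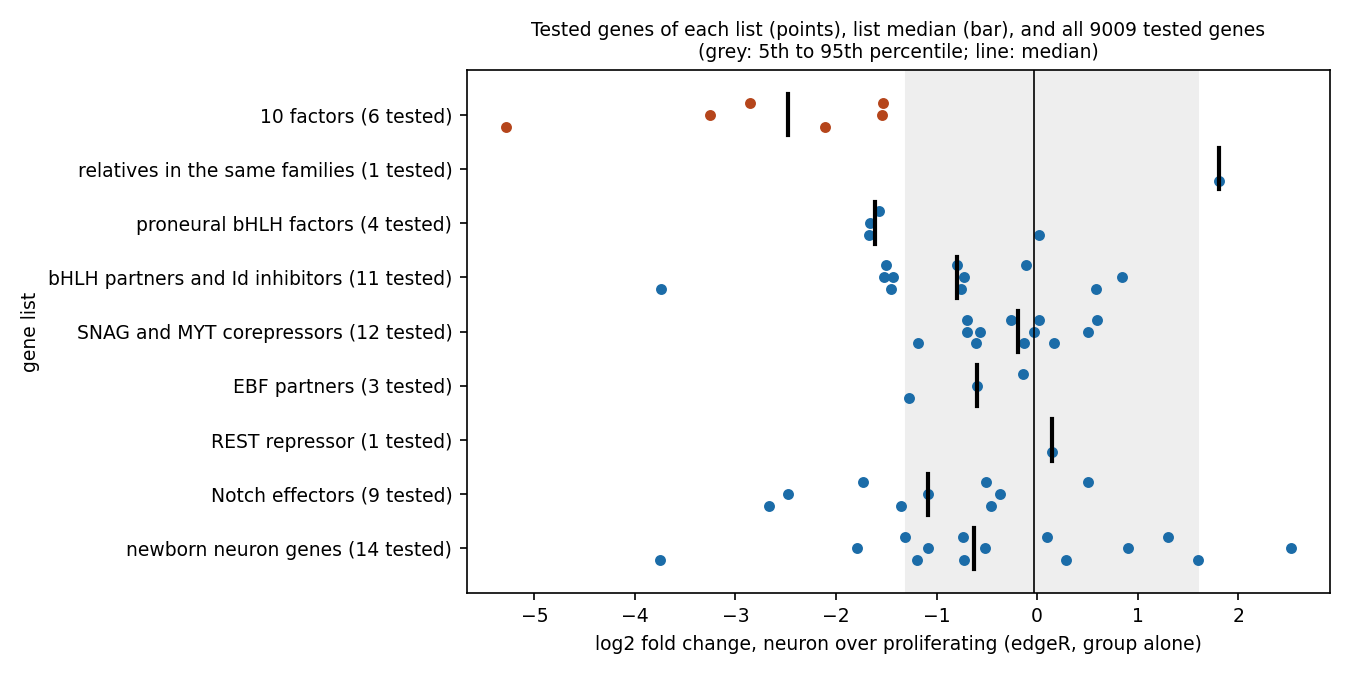
Log2 fold change, neuron over proliferating, from edgeR with group alone, for the fitted genes of each list; points are genes, thick bars are list medians, the thin line is the median of all 9009 fitted genes and the grey band runs from their 5th to their 95th percentile. The 6 fitted members run from -5.28 to -1.54, and St18, the 1 fitted relative, is at 1.81.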

How the data were processed

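RNA-seq of 2 proliferating and 2 neuron iMOP libraries was analysed. Per the labels' protocols, stranded libraries were made from DNase-treated total RNA after depletion of ribosomal RNA. The submitters' processing notes name the build mm10 and the tools DESeq2, featureCounts, HISAT2 and SAMtools; versions, annotation and strand setting are not given in the sources used here. The authors deposited raw counts per gene, 1 file per library, and RPKM values whose library totals include ribosomal RNA.

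The 7 rRNA and rRNA-like genes (mt-Rnr1, mt-Rnr2, AY036118, Gm15564, Lars2, Mir6236 and Rn18s-rs5) were set aside. The deposited counts were fitted with edgeR 4.0.16 in R 4.3.3 (TMM, filterByExpr, quasi-likelihood test, group alone), with Benjamini-Hochberg adjustment over 9009 genes and a threshold of 0.05. The SE is the absolute log2 fold change divided by the root of the F statistic. Ratios within a number have Clopper-Pearson intervals, levels exact Poisson intervals and shares Wilson intervals. Gene length came from counts and RPKM, which gave 1 length per gene, within a relative 0.001, for 17709 of 17709 genes. GC content is that of the longest GENCODE M21 transcript. Alternatives used DESeq2 1.42.0, limma 3.58.1 on the RPKM values, other scalings and filters, a replicate block, a GC correction and each library left out. The fits were tested on simulated data. All members are reported. The rule named the 10 members and up to 3 genes per list by mean CPM. 1 gene that the rule selected is not reported here. Neurog1, Id1, Id2, Id3, Id4, Gm10578 and the single marker genes were named after their values were seen. The members and lists were chosen with earlier results of these data known.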

Additional observations from a re-analysis of the deposited data

How the results depend on the processing

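The 6 fitted members were lower in the neuron group under all 13 alternatives, and 0 of them changed sign. Where all 10 were fitted, with no filter on low counts and with DESeq2, 9 of 10 were lower and Myt1l was higher (0.52 and 0.47 on the log2 scale). Nhlh1 ranged from -9.06 to -1.68, Ebf1 from -3.90 to -0.69, Myt1 from -3.69 to -0.67, Ebf3 from -2.64 to -0.59, Insm1 from -2.13 to -0.27 and Ebf2 from -2.77 to -0.06. The values nearest 0 came from limma on log2(RPKM + 1), a scale that understates changes of low genes. The lowest value of Nhlh1 came without neuron 1, where the 1 neuron library left has 0 counts, so it depends on the prior count and is no bound; a lone library is assumed to vary like the others. With ribosomal RNA genes kept, 11525 genes were fitted, Scrt1 and Scrt2 among them, at -3.55 and -4.07. With 2 pairs, the replicate numbers share only a number, although samples of 1 number deviated together (correlation of deviations 0.74 across genes). With the replicate block, edgeR called 87 genes, 29 of them lower, which is 0.322% of 9009; 3 members, Nhlh1, Myt1 and Ebf1, were among the lower ones. With the replicate block and a GC correction it called 16 genes, 9 of them lower (0.0999%), and the same 3 members. Under the other 11 alternatives, 0 genes and 0 members were called. Of 60 within-number ratios under other priors or scales, 53 stayed inside the main counting interval; the 7 outside were on the RPKM scale. Within number 2, 2 counts against 1 left Myt1l without a direction (log2 ratio -0.52, and 0.42 on the RPKM scale). Depth limits Nhlh2 in all libraries, Myt1l in all but neuron 1, and Scrt1 and Scrt2 in those numbered 2.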
